A study of Bos taurus with 6 samples.

Results

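The genes described here encode the class II molecules of the bovine major histocompatibility complex (MHC, called BoLA in cattle) and the proteins that load them. They were measured in jugular vein whole blood of 3 fat-1 transgenic and 3 wild type cows, all female, with 1 single-colour Agilent array per cow. The transgene fat-1, from the nematode Caenorhabditis elegans, codes for an enzyme that makes omega-3 from omega-6 fatty acids, and the promoter that drives it in these cows, the founder line and the kinship of the animals were not among the labels used here. No probe of the array was annotated to the nematode gene, and the transgene's RNA was not analysed here. The fat-1 cows were aged 3.5 years (replicate 1) and 3 years (replicates 2 and 3), and the wild type cows 3 years each. Members were the array's probes, controls aside, whose gene name began with BOLA-D or was DSB, DYA, DOA, CD74 or CIITA, or whose description named class II of the complex. The rule used no measured value. It found 30 of the 43653 probes of the array, for 13 gene names: 9 DQ, 6 DR, 5 DM, 2 DO, 5 CD74, 1 DSB and 2 DY probes. No probe carried the gene name DYA alone, DOA or CIITA. A further 17 class II probes that the array names differently, among them 12 DQ, 1 DOA and 2 CIITA probes, were set beside the members and not counted with them.

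MHC class II molecules are pairs of an alpha and a beta chain that carry peptides from the endosome to the surface of B cells, monocytes and dendritic cells, where CD4 T cells read them. DR and DQ are the classical presenting pairs, CD74 is the invariant chain that guards the groove on the way, DM exchanges its fragment for peptide, DO restrains DM, and CIITA switches on transcription of the whole family. In cattle the DRB3 and DQ genes are highly polymorphic, and DQ genes can be duplicated on one haplotype and not on another, while DM, DO and CD74 vary little, and DY and DSB belong to a second class II region found in ruminants.

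Each probe is a stretch of 60 bases, so a probe for a polymorphic gene reports the letters it was designed on. The sequences below are in the 5′ to 3′ direction as the files give them. They are shown because these probes lie on like stretches of DQA genes and gave unlike patterns or unlike ranges over the 6 cows. Capitals mark letters that differ from the probe printed just before them in the same group, or for DQA1 A_73_P062201 from DQA2 A_73_P039756, where the 2 overlap without gaps. DQA2 A_73_P245636 matched 41 of 46 overlapping bases of A_73_P039756, and DQA1 A_73_P062201 matched 38 of 45.
DQA2 A_73_P039756: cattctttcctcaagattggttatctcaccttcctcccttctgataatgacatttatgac
DQA2 A_73_P245636: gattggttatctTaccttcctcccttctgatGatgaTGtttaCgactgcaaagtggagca
DQA1 A_73_P062201: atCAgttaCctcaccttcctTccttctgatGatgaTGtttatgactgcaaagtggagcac
The next pair, of which only the second is a member, matched at 29 of 36 overlapping bases.
DQA2 A_73_111307: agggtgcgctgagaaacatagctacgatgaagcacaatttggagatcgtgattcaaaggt
DQA3 A_73_118124: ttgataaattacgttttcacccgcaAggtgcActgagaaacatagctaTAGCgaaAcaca
Probes A_73_P106611 and A_73_P031561 matched at 38 of 59 overlapping bases, of which the middle 30 are printed, with 10 differences.
DQA2 A_73_P106611, bases 15 to 44: tagttgcctaccatgagatcactggggtat
DQA1 A_73_P031561, bases 16 to 45: tTAtCAcctaATatgGgatcTctgAgAtat
On the array's build, Btau_3.1, A_73_P039756 lies at chr23:26190182-26190241, A_73_P062201 at chr23:26298436-26298495, A_73_111307 at chr23:26299155-26299214 and A_73_P031561 at chr23:26243093-26243152, all on the minus strand. The files give no position for A_73_P245636, A_73_118124 and A_73_P106611. The DQA1 probe A_73_P031561 carries the accession of a gene that RefSeq's assembly ARS-UCD2.0 now calls BOLA-DQA5. Exons and untranslated regions were not assigned, since no annotation of Btau_3.1 was used here.

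Levels below are log2 processed intensity after subtracting the array's own 75th percentile, in the order of replicates 1, 2 and 3. Differences are fat-1 minus wild type with the standard error (SE) of limma's fit, and p-values are limma's, adjusted by Benjamini-Hochberg over the 26814 probes tested. A probe was tested if it was well above background, by the scanner's flag, on at least 3 of the 6 arrays. The 75th percentile itself was at an intensity of 716 to 1067 on the fat-1 arrays and 613 to 887 on the wild type arrays, and 60.4% to 63.4% of probes were well above background on fat-1 arrays against 58.4% to 61.3% on wild type arrays. The fat-1 arrays were on slide 1 and the wild type arrays on slide 2, each read in a scan of its own, so that group, slide and scan cannot be told apart. Wild type replicate 2 stood farthest from its own group, with a mean correlation of 0.970 over probes against 0.973 to 0.984 for the other 5 arrays. Its file had been saved again with values at 3 significant digits, against 7 in the others.

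No class II member passed the test of a difference between fat-1 and wild type blood. Of the 30 members, 23 were tested and every one of those was well above background on all 6 arrays, while 6 DQ probes and the DYA probe were not tested. An adjusted p of 0.05 was passed by 0 of 23, where 0.172% of all probes tested passed it. At an unadjusted p under 0.05 stood 1 of 23 members, against 12.8% of all probes, and in 1 of 23 members the 3 fat-1 cows did not overlap the 3 wild type cows, against 19.6% of all probes. The median difference of the 23 probes was -0.20, beside -0.057 over all probes tested. It was below 0 at 20 of 23 members (87.0%), against 55.3% of all probes tested. After quantile scaling between arrays it was below 0 at 14 of 23 members, with a median of -0.02. The authors' value table, which is scaled much alike, gave the same. Probes of a gene are not independent of each other, and no test was made of these counts.

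The DQ alpha chain genes held the widest differences among the members, and these were between single wild type cows. DQA2 probe A_73_P106611 gave 6.88, 6.68 and 6.83 in fat-1 cows, against 7.06, -1.57 and 4.84 in wild type cows. The 3 fat-1 cows and wild type replicate 1 were level, replicate 3 was lower and replicate 2 lower still, so the groups overlapped. The SD was 0.10 over fat-1 cows and 4.48 over wild type cows, and the difference of 3.35 ± 1.80 (SE) did not pass limma's test (adjusted p = 0.43). Without wild type replicate 2 that difference was 0.84, and without wild type replicate 1 it was 5.16 (adjusted p = 0.713 and 0.311 in limma). The other DQA2 member, A_73_P039756, printed first above, gave 4.65, 4.33 and 4.83 in fat-1 cows, against 4.88, 1.44 and 3.24 in wild type cows. Its cows stood in a like order, with wild type replicate 2 lowest and replicate 3 next. The difference was 1.42 ± 0.72 (SE, adjusted p = 0.419 in limma), and 0.54 without wild type replicate 2. Without wild type replicate 1 it was 2.27 (adjusted p = 0.15 in limma), and with array weights 0.03.

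Of the probes outside the set that share its stretch, A_73_P245636 kept nearly that order over a smaller range and A_73_P062201 did not. A_73_P245636, with 5 letters changed over 46, gave 4.65, 4.44 and 4.86 in fat-1 cows, against 4.95, 4.29 and 4.21 in wild type cows. Wild type replicates 3 and 2 were lowest there, over a range of 0.75 against 3.45 at A_73_P039756. A_73_P062201, with 7 letters changed over 45, gave 4.22, 4.28 and 4.63 in fat-1 cows, against 4.65, 5.34 and 4.72 in wild type cows. So in wild type replicate 2, lowest at A_73_P039756, the level was highest at the DQA1 probe on nearly the same stretch. Whether the differing letters account for this was not tested, and the animals' class II haplotypes were not analysed here.

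Signal at the DQA3 probes came from 1 cow. A_73_P245461 stood at 5.29 in wild type replicate 3 and was not well above background in any other cow, with -6.66, -6.86 and -7.27 in fat-1 cows, against -5.27 and -6.96 in wild type replicates 1 and 2. Taking each dim array at the higher of its own value and the lowest level of any probe well above background there, replicate 3 was at least 1701-fold to 2759-fold higher than the fat-1 cows. Against wild type replicates 1 and 2 it was at least 1361-fold and 2919-fold higher. The second DQA3 probe, A_73_118124, stood at 2.17 in wild type replicate 3 and at -6.64, -7.03 and -7.46 in fat-1 cows, against -6.92 and -6.91 in the other wild type cows. That is at least 196-fold to 317-fold over the fat-1 cows. Its partner in print above, A_73_111307, was measured in all 6 cows, at 2.18, 2.14 and 2.88 in fat-1 cows, against 2.97, 2.90 and 1.61 in wild type cows, where replicate 3 was lowest. A DQA2 probe outside the set, A_73_P036601, which matches A_73_P245461 at 49 of 51 overlapping bases, was likewise well above background in wild type replicate 3 alone, at 3.16.

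At A_73_P031561, named DQA1 on the array though RefSeq now calls its gene BOLA-DQA5, the picture was turned to wild type replicate 2. The probe named DQA1 outside the set, A_73_P062201, is listed under another transcript. Probe A_73_P031561 was well above background in that cow alone, at -1.62, while the fat-1 cows gave -6.62, -6.98 and -7.41, and wild type replicates 1 and 3 gave -6.89 and -5.39. Replicate 2 was at least 14.1-fold to 22.9-fold above the fat-1 cows. This is the cow in which A_73_P106611, the probe printed beside it, was lowest. The brighter signals of wild type replicate 3 at DQA3 and of replicate 2 at DQA1 rest on 1 array each, and the bounds hold for processed intensity only. With another background correction (normexp) the log2 range over the 6 cows was 9.12 in place of 12.56 at A_73_P245461, 6.16 in place of 9.62 at A_73_118124 and 2.74 in place of 5.79 at A_73_P031561, each smaller than the bounds at that probe. The other DQA1 member, A_73_P062199, was not well above background in any cow.

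The DQ beta chain, partner of DQA, was measured by 1 of its 3 members. DQB probe A_73_P052096 gave 4.82, 4.86 and 5.18 in fat-1 cows, against 5.54, 5.97 and 4.23 in wild type cows. The wild type cows held both the highest and the lowest value, and the difference was -0.29 ± 0.41 (SE, adjusted p = 0.726 in limma). Without wild type replicate 2 it was 0.07. DQB probes A_73_105688 and A_73_P336561 were not well above background in any cow. A DQB probe outside the set, A_73_P109256, had the widest range of any class II probe here, at 7.12, 7.10 and 7.00 in fat-1 cows, against 7.23, -6.98 and 3.19 in wild type cows. Wild type replicate 2 was not well above background there. In processed intensity the fat-1 cows were at least 9556-fold to 10410-fold higher than that cow, yet level with wild type replicate 1. DQA2 probes A_73_P052576 and A_73_P235072, likewise outside the set and alike at 30 of 33 overlapping bases, were likewise lowest in wild type replicate 2, at 2.67 to 3.53 and 2.06 to 2.90 in fat-1 cows, against -6.82 and -6.95 in wild type replicate 2, which was not well above background at either. At these 3 probes that cow has only an upper bound, so no fitted difference is given. DQB probe A_73_101349, also outside the set, went the other way, with 6.04, 5.85 and 6.21 in fat-1 cows, against 6.59, 7.91 and 6.40 in wild type cows. There wild type replicate 2 was highest and the groups did not overlap (-0.93 ± 0.38, SE, adjusted p = 0.38 in limma). Of the 11 DQ probes outside the set that were tested, 6 differed below 0 and 5 above, none passed, and all 11 had a larger SD over wild type than over fat-1 cows.

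DRA, the near-invariant alpha chain of DR, varied little over the 6 cows. Its brightest probe, A_73_107479 (chr23:26439544-26439586, minus strand), gave 7.85, 7.61 and 7.47 in fat-1 cows, against 8.12, 8.05 and 7.57 in wild type cows. Wild type replicates 1 and 2 were highest, but replicate 3 lay among the fat-1 cows, and the difference was -0.27 ± 0.24 (SE, adjusted p = 0.583 in limma). The other DRA probes differed by -0.12 ± 0.23 and -0.20 ± 0.23 (SE).

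DRB3, the main expressed and highly polymorphic beta chain of DR in cattle, had 3 probes that did not order the cows alike. A_73_P045206 gave 6.84, 6.88 and 6.98 in fat-1 cows, against 7.15, 7.27 and 6.37 in wild type cows, so that wild type replicate 3 was lowest of the 6. A_73_P062206 (chr23:26338728-26338787, plus strand) gave 6.10, 6.13 and 6.51 in fat-1 cows, against 6.46, 6.61 and 5.54 in wild type cows, with the same cow lowest. Their differences were -0.03 ± 0.27 and 0.05 ± 0.31 (SE). The third, A_73_P103296, gave 5.18, 5.04 and 5.35 in fat-1 cows, against 5.36, 6.29 and 5.87 in wild type cows. Here all 3 fat-1 cows were below all 3 wild type cows, by a margin of 0.02 between fat-1 replicate 3 and wild type replicate 1, and wild type replicate 3 was second highest. The difference was -0.65 ± 0.27 (SE, adjusted p = 0.38 in limma), or -0.43 without wild type replicate 2, and no other member had an unadjusted p under 0.05.

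DMA and DMB, the chains of the peptide exchanger, differed below 0 at each of 5 probes, none past the test, although DMA A_73_104988 stood at 0.03 after quantile scaling. DMA A_73_104988 gave 4.83, 4.90 and 4.95 in fat-1 cows, against 5.17, 5.34 and 4.71 in wild type cows. DMB A_73_P039926 gave 4.73, 4.87 and 5.01 in fat-1 cows, against 5.28, 5.57 and 4.88 in wild type cows. At both of these probes wild type replicates 1 and 2 were above every fat-1 cow and replicate 3 was not, while at the second DMA probe, A_73_P372951, fat-1 replicate 3 (3.00) was highest of all. The 5 differences ran from -0.40 to -0.13, with a median of -0.26 and a lowest adjusted p of 0.482 in limma. DOB, the beta chain of the DM inhibitor, gave 0.29, 0.82 and 1.31 in fat-1 cows, against 1.46, 1.05 and 0.73 in wild type cows at A_73_P251706, so the groups overlapped widely. Its 2 probes differed by -0.28 ± 0.31 and -0.54 ± 0.40 (SE). DOA, the alpha chain of DO, was measured outside the set and differed by -0.21 ± 0.27 (SE, adjusted p = 0.706 in limma).

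CD74, encoded on another chromosome, had 5 probes that differed below 0, none past the test, 2 of them above 0 (0.01 and 0.07) after quantile scaling. A_73_P103191 (chr7:61216607-61216666, minus strand) gave 6.08, 6.02 and 6.13 in fat-1 cows, against 6.52, 6.59 and 5.85 in wild type cows. Wild type replicate 3 was again lowest of all 6, and the other 2 wild type cows highest. The difference was -0.24 ± 0.25 (SE, adjusted p = 0.638 in limma), and A_73_116755, identical to it over the 46 bases they share, gave -0.22 ± 0.25 (SE). Across the 5 probes differences ran from -0.38 to -0.12.

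The ruminant genes DSB and DYB showed no difference past the test. DSB, a beta chain gene of the second class II region, gave 5.67, 5.68 and 5.99 in fat-1 cows, against 5.97, 6.21 and 5.18 in wild type cows, a difference of -0.01 ± 0.30 (SE, adjusted p = 0.993 in limma). DYB, a gene known from ruminant dendritic cells, was dim, at -3.76, -3.93 and -3.47 in fat-1 cows, against -3.62, -3.43 and -3.81 in wild type cows (-0.10 ± 0.22, SE, adjusted p = 0.835 in limma). Its alpha chain DYA was not well above background in any cow, from -7.25 to -6.75 in fat-1 cows, against -7.10 to -6.79 in wild type cows.

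The polymorphic DQ and DR chains were then set against DM, DO and CD74, as the difference of mean levels within each cow. DQ differed from the accessory genes by 2.03, 2.19 and 2.03 in fat-1 cows, against 1.90, -1.77 and 0.81 in wild type cows. DR differed from them by 2.89, 3.05 and 2.72 in fat-1 cows, against 2.66, 2.97 and 2.81 in wild type cows. Wild type replicates 2 and 3 thus stood apart for the mean of the 3 DQ probes tested, A_73_P106611, A_73_P039756 and A_73_P052096. In replicate 2 the first 2, both for DQA2, were low, while DQB A_73_P052096 was highest of all 6 cows (5.97). For DR the groups overlapped, with means of 2.89 ± 0.17 in fat-1 cows and 2.81 ± 0.15 in wild type cows (SD, n = 3 each). For DQ and DR together the means were 2.62 ± 0.14 in fat-1 cows and 1.98 ± 0.53 in wild type cows (SD, n = 3 each), 0.64 apart, which was 0.34 without wild type replicate 2. With no filter on dim probes, when the 6 dim DQ probes enter, it was -0.22, of opposite sign. Probes differ in brightness for reasons of design, so only the comparison between cows can be read, and with members chosen as a group no p is given.

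Spread between wild type cows was widest at the 3 DQ members tested, whereas DR, DO and CD74 lay near each other. The median SD over wild type cows was 1.72 for the 3 DQ probes tested, 0.38 for DR, 0.23 for DM, 0.55 for DO and 0.41 for CD74, beside 0.313 over all probes tested. Over fat-1 cows it was 0.20 for DQ, 0.18 for DR, 0.30 for DM, 0.50 for DO and 0.17 for CD74, beside 0.238 over all probes tested. The wild type SD was above the fat-1 SD at 3 of 3 DQ probes, 6 of 6 DR probes, 2 of 5 DM probes, 1 of 2 DO probes and 4 of 5 CD74 probes, against 61.7% of all probes tested. The residual SD of A_73_P039756 stood at percentile 98.9 of all probes tested and that of A_73_P052096 at 91.6, whereas the 6 DR probes ran from 27.5 to 73.8. High spread was not limited to DQ, since DOB A_73_P042646 stood at 90.1 and CD74 A_73_P106621 at 87.5. Nor did every DQ probe have it. Over the 11 DQ probes tested outside the set the median SD over wild type cows was 0.81. It was 0.41 at A_73_P245636 and 0.38 at A_73_P062201, near the medians of DR and CD74.

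Outside DQ, the same cows recurred as highest or lowest. Over the 20 tested members other than DQ, wild type replicate 1 was the highest cow at 9 probes and wild type replicate 2 at 10, wild type replicate 3 was the lowest at 9 and fat-1 replicate 2 at 8. B cells carry much of the class II RNA of blood, and in bulk blood fewer cells of a type and less RNA per cell cannot be told apart. The summed level of 9 measured B cell markers of 12 was 5.99 to 6.10 on the log2 scale in fat-1 cows, against 6.13 to 6.85 in wild type cows, with CD79A, a chain of the B cell receptor, at 5.25, 5.08 and 5.29 in fat-1 cows, against 6.11, 5.61 and 5.08 in wild type cows. The mean log2 level of the same 9 markers overlapped between the groups, at 0.68, 0.15 and 0.56 in fat-1 cows, against 1.06, 0.20 and 0.32 in wild type cows. Among these markers 6 differed below 0, and MS4A1 (0.16 ± 0.46, SE), BANK1 (0.36 ± 0.51, SE) and CR2 were the others. CR2 was well above background on 3 fat-1 arrays and 0 wild type arrays, so no difference is given for it. BLK had the lowest difference, -0.85 ± 0.31 (SE, adjusted p = 0.351 in limma). The summed level of 10 monocyte markers of 10 was 8.73 to 9.24 in fat-1 cows, against 8.48 to 8.96 in wild type cows, and that of 8 dendritic cell markers of 12 was 3.41 to 3.82 in fat-1 cows, against 3.76 to 3.87 in wild type cows. Below 0 were 1 of 10 monocyte markers (median difference 0.38) and 5 of 8 dendritic cell markers, against 55.3% of all probes tested. Red cell markers, 5 of 5 measured, had a summed level of 9.12 to 10.05 in fat-1 cows, against 7.15 to 10.33 in wild type cows, with wild type replicate 2 highest. These markers were split. HBA, HBB and ALAS2 differed above 0, while GYPC (-0.71 ± 0.23, SE, adjusted p = 0.311 in limma) and SLC4A1 were below 0. SLC4A1 was well above background on 0 fat-1 arrays and 3 wild type arrays, so no difference is given for it. The leukocyte gene PTPRC gave 4.93, 4.63 and 4.75 in fat-1 cows, against 4.64, 5.01 and 4.52 in wild type cows. No marker in these lists passed the test, and the part of cell numbers in the class II levels was not tested. With DRA A_73_107479, the 5 genes most alike over the 6 cows, among 10762 genes, were ZNF592 and KLK9 (Pearson's r = 0.988 each), BCL3 (0.983), RPL26 (0.982) and TMEM30A (0.981), which describes 6 arrays that also share slides and scaling.

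CIITA, the master switch of class II transcription, was measured by 2 probes outside the set. A_73_P112256 gave 0.66, 0.37 and 0.80 in fat-1 cows, against 0.91, 0.34 and 0.21 in wild type cows, overlapping throughout (0.12 ± 0.25, SE). The second differed by -0.20 ± 0.32 (SE). Of 16 other measured regulators of class II, among them the RFX and NF-Y subunits, none passed the test and none had an unadjusted p under 0.05. The 2 with the smallest p were MARCHF1, a ubiquitin ligase that removes class II from the surface, and RFXANK, a subunit of the RFX complex. MARCHF1 was dim, at -4.57 to -3.43 in fat-1 cows, against -5.94 to -4.28 in wild type cows. The groups overlapped, and it was well above background on 3 fat-1 arrays and 1 wild type array, so no difference is given. RFXANK gave 3.48, 3.45 and 3.46 in fat-1 cows, against 3.81, 4.22 and 3.53 in wild type cows, so that every fat-1 cow was lower, by a difference of -0.39 ± 0.23 (SE, adjusted p = 0.461 in limma).

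None of the genes of antigen processing, the interferon gamma path or costimulation passed the test either. Among 13 measured processing genes the median difference was 0.04, and the 1 with an unadjusted p under 0.05 was SPPL2A, the protease that clears the last fragment of CD74 from the membrane. SPPL2A gave 2.47, 2.49 and 2.46 in fat-1 cows, against 1.87, 1.75 and 2.24 in wild type cows, and its 3 other probes differed the same way (0.52 ± 0.21, SE, adjusted p = 0.38 in limma). Among 16 measured genes of the interferon gamma path, which induces CIITA, GBP5 was higher and IL10 and TAP2 lower at an unadjusted p under 0.05. That leaves IFNG aside, and 12.8% of all probes tested stood at this threshold. The cytokine gene IFNG was at -3.12, -3.27 and -1.91 in fat-1 cows and below the scanner's detection flag in all 3 wild type cows. In processed intensity fat-1 blood was thus at least 4.97-fold higher, a bound not checked with another background correction. IFNG entered the test through the fat-1 arrays alone, so no p is given for it and it was not counted above. GBP5, an interferon-induced GTPase, gave -1.97, -1.95 and -1.60 in fat-1 cows, against -3.42, -3.60 and -5.24 in wild type cows, of which 2 were well above background (adjusted p = 0.121 in limma). IL10, known to lower class II on human monocytes, gave -1.29, -1.41 and -1.27 in fat-1 cows, against -0.65, -0.41 and -0.33 in wild type cows (adjusted p = 0.185 in limma). TAP2, a peptide transporter of the class I route encoded among the class II genes, gave 3.22, 3.41 and 3.49 in fat-1 cows, against 4.15, 4.50 and 3.86 in wild type cows (adjusted p = 0.274 in limma). At GBP5, IL10 and TAP2 the groups did not overlap, as at 19.6% of all probes tested. Of 10 measured costimulation genes, LAG3, a receptor on T cells that binds class II, had the 1 unadjusted p under 0.05, at -0.23, 0.46 and 0.29 in fat-1 cows, against 0.97, 1.82 and 0.65 in wild type cows (adjusted p = 0.341 in limma).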

How the data were processed

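Blood of 6 cows was profiled, 3 per group, with 1 array per animal. Groups follow the labels' sample names, and the labels do not say how animals were bred or chosen. The p-values thus set the difference between groups against the spread within groups of these animals alone. That difference also holds any effect of slide and scan, which coincide with group. Per the submitters' processing notes, the authors' spot intensity comes from Agilent Feature Extraction 10.7.1.1. Per the file headers, background was subtracted and dim spots took a surrogate value, which narrows spread at the dim end. The scanner's flags, as deposited, marked spots that were well above background, saturated or outlying. The authors' deposited value table holds log2 values; each of its columns correlated at 0.999 or above with its own array, and its columns had medians of 6.38. Its scale was read as log2 processed intensity, and no source used here names the tool that made it.

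From the log2 of each processed intensity, the 75th percentile of the array's non-control spots was subtracted. Replicate spots were averaged. An outlier flag removed 48 probes, none of them a member. No member was saturated. Of the rest, 26814 probes that the flag marked as well above background on 3 or more of 6 arrays were tested with limma 3.58.1 (lmFit, then eBayes, under R 4.3.3) for group alone, at a Benjamini-Hochberg adjusted p of 0.05. The procedure was tested on simulated data. The files' gene names were used for members, and names of other probes came from RefSeq genes of ARS-UCD2.0, by accession for 20595 probes and by symbol for 10745. The number of arrays limits the precision.

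Alternatives were the normexp background correction (offset 50), quantile scaling, the authors' value table, no filter and a filter on all 6 arrays, an intensity trend, array weights, a replicate block and leaving out each replicate. Members and lists were chosen with earlier results of these data known. Each animal's values are given for the brightest probe of each member gene and for further members with an unadjusted p under 0.05 or an SD above 1 within a group. Of each pathway list, up to 4 genes with the smallest unadjusted p under 0.05 are named, or 2 where none passed. Probes outside the set were chosen after their values were seen. A list gene stands by its brightest probe. Probe sequences were aligned without gaps over at least 30 bases, at 60% or more identity. Promoter and protein sequences were not analysed here.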

Additional observations from a re-analysis of the deposited data

How the results depend on the processing

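No member passed in any alternative. The lowest adjusted p of any member was 0.072, at DOB A_73_P042646 with array weights. Over the array, 46 probes passed in the reported fit. The count was 116 with normexp, 16 with quantile scaling, 16 in the authors' value table, 14 with no filter, 121 with an intensity trend, 1051 with array weights and 8 to 55 with a replicate left out. Array weights were estimated gene by gene, because the default estimate did not converge, and gave wild type replicate 1 a weight of 5.26 and wild type replicate 2 one of 0.33. The replicate block gave 105 calls over the array and 0 at members. Replicate numbers were not taken as pairs in the reported fit. Deviations of same-numbered animals correlated at 0.12, 0.19 and 0.0057. Replicates 1 and 2 correlated best with their own number and replicate 3 did not. Deviations within a group sum to 0, so these values cannot decide whether animals were paired. The median difference of members was -0.39 to -0.09 with a replicate left out. The difference of DQ and DR from DM, DO and CD74 between the groups was 0.64, -0.22 with no filter, and 0.34 to 0.85 with a replicate left out. Signs turned at some members. As no member passed in any setting, a sign could turn only at a member without a call. With normexp the members that turned were DRB3 A_73_P045206 (0.04) and DSB (0.0394). With quantile scaling and in the value table they were CD74 A_73_P393756 (0.0142 and 0.013), CD74 A_73_P106626 (0.0735 and 0.0742), DMA A_73_104988 (0.0254 and 0.0273), DRA A_73_P038356 (0.112 and 0.11), DRB3 A_73_P045206 (0.211 and 0.213) and DSB (0.181 and 0.184). With array weights DRB3 A_73_P062206 gave -0.145. Leaving out a replicate gave -0.31 to 0.142 at DRB3 A_73_P045206, -0.31 to 0.207 at DSB, -0.317 to 0.134 at DMA A_73_P372951, -0.225 to 0.0077 at DYB, -0.358 to 0.007 at CD74 A_73_P106626, -0.252 to 0.0236 at DRA A_73_P038356, -0.802 to 0.0683 at DQB A_73_P052096 and -0.284 to 0.249 at DRB3 A_73_P062206. The cause was not tested. Members with an unadjusted p under 0.05 in limma numbered 5 of 23 with array weights, the setting with 1051 calls over the array. In the other settings they numbered 0 to 3 of 23. The share of all probes at that threshold was counted in the reported fit alone, where it was 12.8% beside 1 of 23 members.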
